A study of Mus musculus with 18 samples.

Results

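The results below describe Ras-driven mouse gliomas taken from animals given the kinase inhibitor PLX3397 or its vehicle, which make up 8 of the 18 libraries of the series. The 8 were chosen by their labels: 4 tumours of the PLX3397 group and 4 of the vehicle group, each labelled as a separate mouse. All 8 tumours carried the oncogene HRasV12 with a dominant negative form of p53, and all mice are labelled as strain Boy/J. Dosing was daily by gavage at 100 mg/kg, began 7 days after tumour implantation and went on until the mouse was moribund, and the vehicle samples also carry the treatment label untreated. Ages, sexes, survival times and whether the implanted cells came from 1 clone are not in the labels, so the drug and any difference in the age of the tumours at collection cannot be told apart. RNA was taken from whole tumour tissue and counted per gene symbol; 35842 genes were in the table and 18366 passed the filter on low counts and were tested.

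PLX3397 blocks CSF1R, the receptor tyrosine kinase that microglia and tissue macrophages need for survival and proliferation, and it also acts on the related receptors KIT and FLT3. CSF1R binds CSF1 and interleukin-34, and its signal runs through PI3 kinase and through the transcription factor PU.1 (Spi1), which sets up the macrophage programme. In gliomas, macrophages and microglia are the most abundant immune cells of the tumour, and they present antigen, clear debris, remodel matrix and make cytokines. The question of the comparison, from the title of the series, is how these cells respond to CSF1R inhibition in a tumour with this driver.

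Depth was 31.3 to 35.9 M counts (1e6) per library. Levels are in CPM, counts per 1e6 counts of the library after TMM scaling, a list level is the mean of log2(CPM + 1) over its members, and a fold is the edgeR log2 difference of PLX3397 minus vehicle with its standard error (SE). The first principal component held 65.5% of the variance and set vehicle replicate 4 (-114.3) and PLX3397 replicate 1 (81) at its ends. These 2 libraries also lay at the ends of the lists for brain cells: the 12 neuron genes stood at 6.59, 8.15, 7.59 and 4.12 in the vehicle libraries and at 8.39, 7.03, 6.83 and 7.00 under PLX3397. The Y-linked gene Ddx3y was present in replicates 1 and 2 of both groups (19.6 to 32.6 CPM) and at or near 0 in replicates 3 and 4 of both groups (0 to 0.135 CPM), while Xist, which is transcribed from the inactive X chromosome, was at 244 to 721 CPM in all 8. In bulk tissue, fewer cells of a type and less RNA per cell cannot be told apart.

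Myeloid genes stood lower in the PLX3397 tumours, among them the MHC class II genes, the NADPH oxidase gene Cybb and the lectin Mgl2, but no gene passed edgeR's test after adjustment. With edgeR's quasi-likelihood test, 0 of 18366 genes (0%) had an adjusted p under 0.05, and the smallest adjusted p was 0.0722, for the interleukin-1 decoy receptor Il1r2. At an unadjusted p under 0.05 there were 572 lower genes (3.11%) and 76 higher genes (0.414%). In 383 genes (2.09%) every PLX3397 library lay below every vehicle library, and in 82 genes (0.446%) every PLX3397 library lay above. Such genes are called separated. The counts of separated members of each list are to be read against these 2 shares, to which a count of 0 in a short list is close. The 2 other tools run on the same counts did make calls: of 18353 genes with an adjusted p, DESeq2 called 166 lower (0.904%) and 3 higher (0.0163%), and limma-voom with sample quality weights called 374 lower (2.04%) and 3 higher (0.0163%). They shared 148 of the lower genes, 89.2% of the DESeq2 list and 39.6% of the other. Of the 383 separated lower genes, DESeq2 called 154 and the quality-weight fit 236. Words such as lower and higher therefore describe the libraries here, and an adjusted p without a tool name is that of edgeR.

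**Figure D1:**
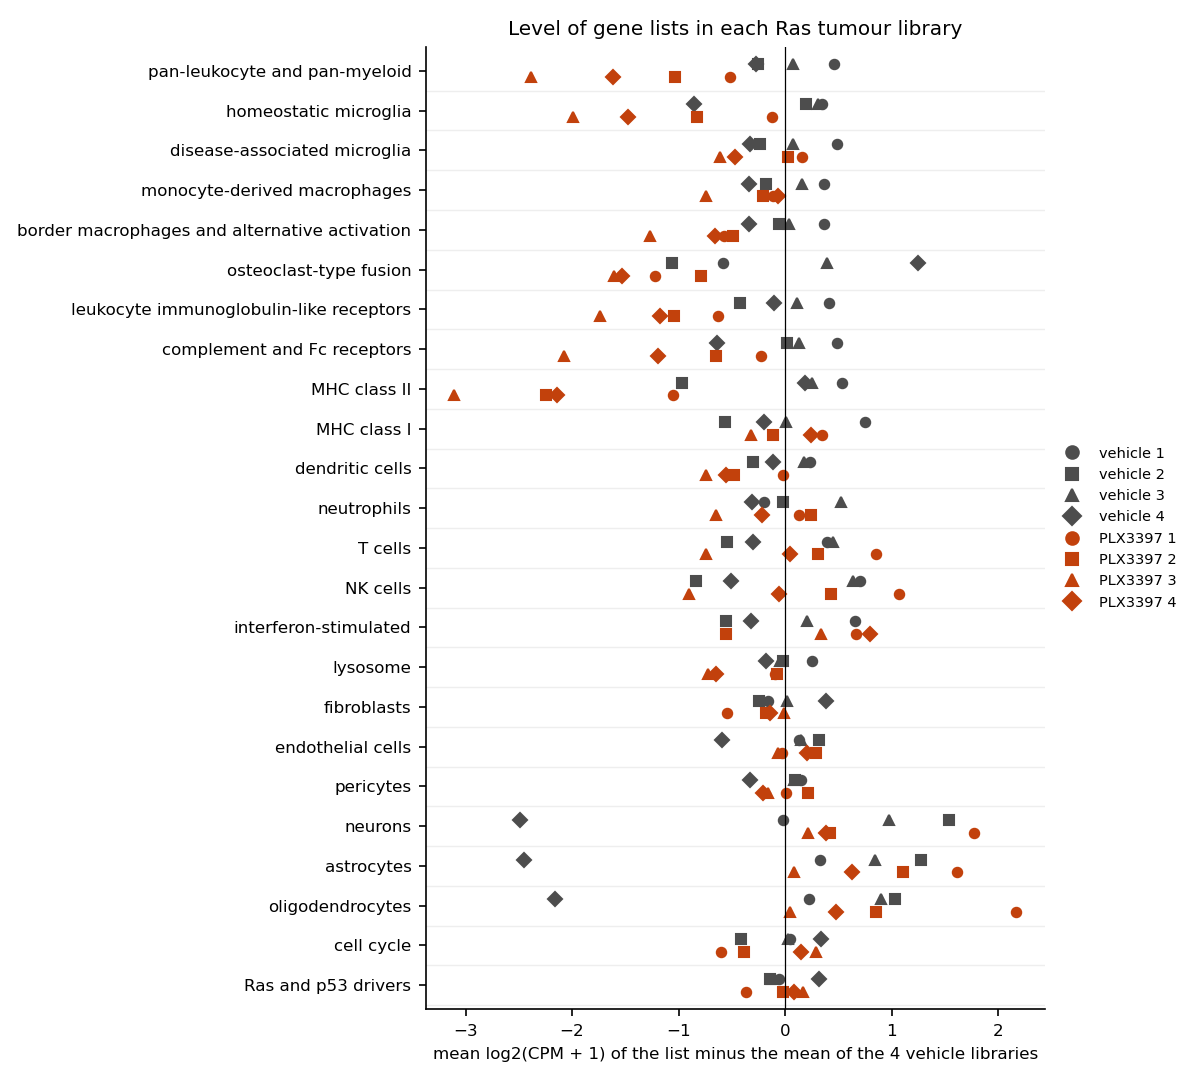
Each row is a gene list and each symbol 1 library; the horizontal axis gives the mean log2(CPM + 1) of the list minus the mean of the 4 vehicle libraries, with vehicle in grey and PLX3397 in orange. The PLX3397 libraries lie left of all vehicle libraries for the pan-leukocyte and pan-myeloid list, the border macrophage list, the leukocyte immunoglobulin-like receptors and MHC class II, and overlap them for MHC class I and T cells; vehicle replicate 4 lies far left for neurons, astrocytes and oligodendrocytes.

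Csf1r, the receptor that the drug blocks, was at 293, 283, 271 and 155 CPM in the vehicle libraries and at 173, 106, 24.6 and 44.3 CPM under PLX3397. The groups overlapped because PLX3397 replicate 1 lay above vehicle replicate 4, and the fold was -1.52 (SE 0.57, adjusted p = 0.9998). Its ligand Csf1 had nearly the same mean in both groups: it was at 256, 174, 226 and 266 CPM under vehicle and at 200, 174, 252 and 290 CPM under PLX3397, with a fold of -0.01 (SE 0.20) whose sign turned with other scalings and with 4 of the 8 libraries left out singly. Il34, the other ligand, had a fold of 0.18 (SE 0.16). Of the 11 genes in the CSF1R list, 10 had a fold below 0. In 4 of the 11 all PLX3397 libraries were below all vehicle libraries, against 2.09% of all genes tested. Pik3cg, the leukocyte PI3 kinase subunit, was at 24.5, 17.6, 24.9 and 17.6 CPM under vehicle and at 9.60, 5.33, 2.63 and 2.92 CPM under PLX3397 (fold -2.05, SE 0.43, adjusted p = 0.415; DESeq2 adjusted p = 0.000923). The other 3 were Spi1 (fold -1.51, SE 0.52), the lipid phosphatase Inpp5d, which opposes PI3 kinase (-1.26, SE 0.43), and the adaptor Tyrobp (-1.25, SE 0.47). DESeq2 called none of these 3 (adjusted p = 0.2165, 0.272 and 0.436), nor Csf1r (adjusted p = 0.341). The 2 further receptors that the drug acts on gave no such separation: Kit had a fold of 0.21 (SE 0.54), which turned to -0.18 without PLX3397 replicate 1 and to -0.08 without vehicle replicate 4, and Flt3 had -0.23 (SE 0.32). Kitl, the ligand of KIT, had 0.28 (SE 0.25).

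All 23 pan-leukocyte and pan-myeloid genes had a fold below 0, with a median of -1.30 against 0.00 over all genes tested. In 11 of them every PLX3397 library was below every vehicle library, against 2.09% of all genes tested. Cybb, the catalytic subunit of the phagocyte NADPH oxidase, was at 174, 78.9, 115 and 89.2 CPM under vehicle and at 31.2, 33.6, 11.1 and 19.9 CPM under PLX3397 (fold -2.25, SE 0.40, adjusted p = 0.367; DESeq2 adjusted p = 5.24e-05). The highest PLX3397 value of Cybb was thus less than the lowest vehicle value. Adgre1, which encodes the macrophage marker F4/80, was at 72.9, 42.8, 52.0 and 41.3 CPM under vehicle and at 22.7, 17.6, 5.35 and 8.66 CPM under PLX3397 (fold -1.95, SE 0.45). Lcp1, an actin-bundling protein of leukocytes (-1.65, SE 0.36), Ptprc, the CD45 phosphatase (-1.60, SE 0.42), and Fyb, an adaptor of leukocyte adhesion (-1.47, SE 0.32), were also separated. Itgam, which encodes CD11b, was not: it was at 101, 113, 111 and 50.8 CPM under vehicle and at 94.7, 45.7, 13.7 and 34.7 CPM under PLX3397 (fold -0.99, SE 0.53, and -1.58 without PLX3397 replicate 1). Within the PLX3397 group, replicate 3 had the lowest value for 22 of the 23 genes and replicate 1 the highest for 16 of them; over all genes tested, replicate 3 was lowest in 29.4% and replicate 1 highest in 42.7%.

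**Figure D2:**
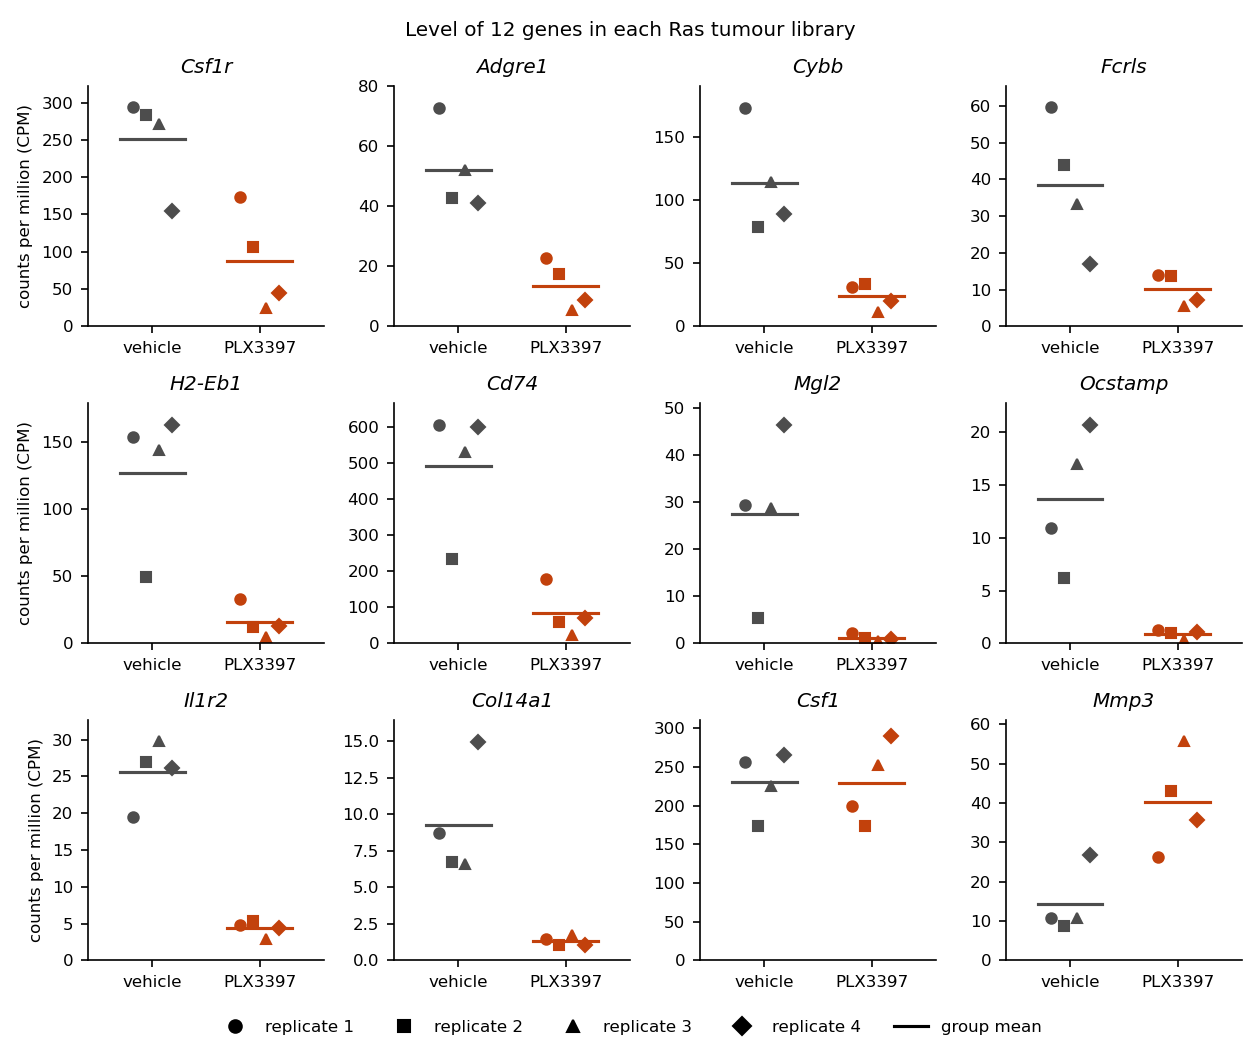
CPM of 12 genes in each library, with vehicle in grey, PLX3397 in orange, 1 symbol per replicate number and a bar at the group mean; the vertical axes start at 0. Csf1r overlaps between the groups, Csf1 has nearly the same mean in both, Mmp3 is higher under PLX3397 with 1 vehicle library among the PLX3397 values, and the other 9 genes have every PLX3397 library below every vehicle library.

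Genes of homeostatic microglia, the resident macrophages of the brain, had a median fold of -1.18 over 16 genes (-1.81 without PLX3397 replicate 1), and 14 of the 16 were below 0. Of the 16, 3 had separated groups, against 2.09% of all genes tested with PLX3397 below vehicle. Fcrls, an Fc receptor-like gene of mouse microglia, was at 59.6, 44.0, 33.3 and 17.0 CPM under vehicle and at 14.0, 13.8, 5.63 and 7.15 CPM under PLX3397 (fold -1.92, SE 0.45). Vehicle replicate 4 was the lowest of its group there and lay close to PLX3397 replicate 1. Rgs10, a regulator of G-protein signalling (-1.40, SE 0.40), and P2ry6, the nucleotide receptor of microglial phagocytosis (-1.40, SE 0.45), were the other 2. DESeq2 called Fcrls (adjusted p = 0.0071) but not Rgs10 (0.0731) or P2ry6 (0.161). The purinergic receptor P2ry12 had a fold of -1.54 (SE 0.71), the fractalkine receptor Cx3cr1 had -1.64 (SE 1.01), and Tmem119 had -0.53 (SE 0.48), all with overlapping groups. Cx3cr1 moved to -2.81 without PLX3397 replicate 1 and to -1.02 without vehicle replicate 3, and Tmem119 moved to -1.03 without PLX3397 replicate 2 and to -0.27 without PLX3397 replicate 4. Set against the pan-myeloid list within each library, the microglia list lay at -1.89, -1.33, -1.55 and -2.36 under vehicle and at -1.39, -1.57, -1.39 and -1.64 under PLX3397, so that the groups overlapped on this scale.

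Genes used as markers of macrophages that derive from monocytes were mixed. Over 18 genes the median was -0.11 (-0.47 without PLX3397 replicate 2), with 11 below and 7 above 0. Emilin2, a matrix glycoprotein of these cells, was at 30.5, 30.7, 29.6 and 39.4 CPM under vehicle and at 16.3, 21.1, 9.71 and 15.4 CPM under PLX3397 (fold -1.06, SE 0.24; DESeq2 adjusted p = 0.0133). Dpp4 and Clec10a were the 2 separated genes of 15 tested dendritic cell genes, against 2.09% of all genes tested. Tgfbi, a secreted matrix protein induced by TGF-beta (-1.08, SE 0.26), and the tetraspanin-like Ms4a7 (-1.89, SE 0.47) also had separated groups. The list of genes raised in disease-associated microglia had a median of -0.15 over 16 genes, and 0 members were separated (2.09% over all genes tested). Itgax, which encodes CD11c, was its lowest member, at 130, 32.8, 119 and 113 CPM under vehicle and 35.4, 15.7, 11.8 and 16.2 CPM under PLX3397 (fold -2.32, SE 0.50), and only vehicle replicate 2 lay within the PLX3397 range. The lipid carrier Apoe had -0.58 (SE 0.59), and between -0.87 and -0.30 with single libraries left out.

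Of the genes with separated groups and a mean log2 CPM of at least 3, the 14 lower ones with the smallest p are described next; Col14a1, Lilra5, Ocstamp and Cd4 had a lower mean and are given with their lists, and Cybb is given above. Il1r2, which binds interleukin-1 without passing on a signal, was at 19.5, 27.02, 29.8 and 26.1 CPM under vehicle and at 4.83, 5.33, 2.97 and 4.41 CPM under PLX3397, a mean of 25.6 ± 4.37 against 4.38 ± 1.01 CPM (SD, n = 4 each). Its fold was -2.54 (SE 0.24), its adjusted p was 0.0722 with edgeR and 9.58e-21 with DESeq2, and with single libraries left out the fold lay between -2.65 and -2.40. Within the 4 libraries that carried Ddx3y the difference of mean log2(CPM + 1) was -1.98, and within the 4 without it -2.64. The signalling receptor of the same family, Il1r1, had a fold of 0.06 (SE 0.22). Of 15 interleukin-1 family genes only Il1r2 and Il1rl2, the interleukin-36 receptor (-1.52, SE 0.29), had separated groups, against 2.09% of all genes tested.

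Mgl2, a galactose-binding lectin of macrophages and dendritic cells, was at 29.3, 5.49, 28.9 and 46.4 CPM under vehicle and at 2.18, 1.24, 0.566 and 0.834 CPM under PLX3397 (fold -4.51, SE 0.72; DESeq2 adjusted p = 1.76e-09). Vehicle replicate 2 was well below the other vehicle libraries for Mgl2. Clec4n, which encodes dectin-2, a receptor for fungal mannans, was at 62.3, 30.7, 35.3 and 55.8 CPM under vehicle and at 14.6, 13.9, 8.12 and 9.05 CPM under PLX3397 (fold -2.01, SE 0.31). Trem1, an amplifier of inflammatory signals, was at 11.4, 8.96, 13.1 and 22.1 CPM under vehicle and at 4.18, 3.96, 2.55 and 2.89 CPM under PLX3397 (fold -2.03, SE 0.33). Clec10a, a paralog of Mgl2, had a fold of -2.22 (SE 0.41); how reads were shared between the 2 similar genes is not given in the sources used here. Lilra5, an activating immunoglobulin-like receptor, was at 11.4, 8.80, 7.82 and 6.05 CPM under vehicle and at 1.18, 0.888, 0.283 and 0.506 CPM under PLX3397 (fold -3.57, SE 0.48), the lowest of 11 such receptors, all 11 of which had a fold below 0 (median -1.11, 5 separated). The others separated were Pilrb2 (-1.72, SE 0.41), the inhibitory receptors Pirb (-1.24, SE 0.33) and Cd300a (-1.49, SE 0.57), and Lilr4b (-1.07, SE 0.45). Over all genes tested 2.09% were separated with PLX3397 below vehicle. DESeq2 called Pilrb2 (adjusted p = 0.00728) but not Pirb (0.0619) or Cd300a (0.407).

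The 14 also held Runx3, Sla, Rin3, Adcy7, Cmklr1, Tgfbr1, Cd244, Amica1 and Ms4a6c. Runx3, a transcription factor of leukocytes, was at 30.8, 24.3, 24.97 and 34.2 CPM under vehicle and at 12.1, 9.05, 4.84 and 7.44 CPM under PLX3397 (fold -1.77, SE 0.29). Sla, an adaptor that dampens receptor signalling, had a fold of -1.86 (SE 0.30), Rin3, an exchange factor for endosomal Rab proteins, had -1.18 (SE 0.22), and Adcy7, an adenylyl cyclase of immune cells, had -0.88 (SE 0.16). Cmklr1, the chemerin receptor, was at 29.7 to 36.6 CPM under vehicle and 10.7 to 20.4 CPM under PLX3397 (-1.16, SE 0.21). Tgfbr1, a type I TGF-beta receptor, was at 55.4 to 95.9 CPM under vehicle and 37.6 to 44.8 CPM under PLX3397 (-0.92, SE 0.17), and it was at 28.2 and 47.6 CPM in the 2 cultured Ras lines. Runx3 was at 5.06 and 10.2 CPM in the lines, while Clec4n, Trem1, Cybb, Cd244, Ms4a6c and Amica1 were listed at 0 in both. Cd244, an immune receptor of the SLAM family (-1.45, SE 0.28), Amica1, a junctional adhesion molecule of leukocytes (-1.99, SE 0.38), and Ms4a6c (-1.84, SE 0.35) complete the 14. For all 14, the DESeq2 and the quality-weight fits gave adjusted p-values under 0.05. The 14 were chosen by separation and small edgeR p on the same counts, so this is no independent support.

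MHC class II genes, which present peptides from taken-up protein to CD4 T cells, had the lowest median of the 45 lists. All 10 tested members were below 0, with a median of -2.57, and 6 had separated groups, against 2.09% of all genes tested. In both cultured Ras lines 9 of the 10 were under 1 CPM, against 18.7% of all genes tested. The surface chain H2-Eb1 was at 153, 49.1, 143 and 162 CPM under vehicle and at 33.1, 12.1, 4.42 and 13.1 CPM under PLX3397, a mean of 127 ± 52.5 against 15.7 ± 12.3 CPM (SD, n = 4 each), with a fold of -3.02 (SE 0.64, adjusted p = 0.426; DESeq2 adjusted p = 0.000225). The highest PLX3397 library, replicate 1, lay under the lowest vehicle library, replicate 2. The chains H2-Aa (-2.70, SE 0.60) and H2-Ab1 (-2.67, SE 0.62) were alike, and so was Cd74, the invariant chain that occupies the peptide groove until it is loaded, at 606, 235, 532 and 602 CPM under vehicle and at 179, 60.6, 24.3 and 70.7 CPM under PLX3397 (-2.56, SE 0.60). The peptide-loading chains H2-DMb2 (-2.89, SE 0.73), H2-DMb1 (-2.38, SE 0.65) and H2-DMa (-1.70, SE 0.52) had folds of the same sign, the last 2 with overlapping groups, and H2-Ob, which restrains loading, was separated (-1.73, SE 0.52). Ciita, the co-activator that drives transcription of these genes, was at 17.3, 3.18, 10.9 and 9.43 CPM under vehicle and at 4.43, 1.12, 0.340 and 0.982 CPM under PLX3397 (-2.57, SE 0.82), and only vehicle replicate 2 lay within the PLX3397 range. In all 10 genes PLX3397 replicate 1 was the highest and replicate 3 the lowest of the PLX3397 libraries. Relative to the pan-myeloid list of the same library, the MHC class II list lay at -1.45, -2.24, -1.35 and -1.07 under vehicle and at -2.06, -2.74, -2.25 and -2.05 under PLX3397, lower in all 4 PLX3397 libraries than in vehicle replicates 1, 3 and 4 but overlapping with vehicle replicate 2. Within the libraries that carried Ddx3y the difference for H2-Eb1 was -2.06 on the log2(CPM + 1) scale, and within those without it -4.13; whether these 2 differ was not tested.

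Class I genes, which present peptides made inside the cell, stood in contrast by their median: over 13 genes it was -0.04, with 7 below and 6 above 0. Of the 13, 0 were separated, which is near the shares over all genes tested (2.09% below, 0.446% above). Nlrc5, the co-activator of class I genes, had a fold of 0.19 (SE 0.28). The class I median lay between -0.17 and 0.34 with single libraries left out. As examples of class II genes, the stretches in front of H2-Eb1, H2-DMb1, H2-DMb2 and H2-Aa are shown, each of which holds a marked motif. They are 130 bases up to the start site from RefSeq (GRCm38.p6), 5′ to 3′ on the strand of the gene. The capitals mark TGATTGG, the Y box bound by NF-Y, and AAC, any base, then GATGATG, the end of the X box bound by the RFX complex and CREB-family factors that CIITA joins; these letters were chosen after the promoters had been looked at.
H2-Eb1 (chr17:34305737-34305866, plus strand): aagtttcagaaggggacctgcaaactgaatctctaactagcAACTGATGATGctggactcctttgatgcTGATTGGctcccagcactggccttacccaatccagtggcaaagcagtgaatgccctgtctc
H2-DMb1 (chr17:34153061-34153190, plus strand): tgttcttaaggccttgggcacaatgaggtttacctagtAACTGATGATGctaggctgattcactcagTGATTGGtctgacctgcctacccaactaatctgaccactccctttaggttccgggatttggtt
H2-DMb2 (chr17:34145119-34145248, plus strand): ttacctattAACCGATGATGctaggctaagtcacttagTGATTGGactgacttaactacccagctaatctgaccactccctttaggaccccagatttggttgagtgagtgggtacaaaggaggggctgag
H2-Aa (chr17:34287824-34287953, minus strand): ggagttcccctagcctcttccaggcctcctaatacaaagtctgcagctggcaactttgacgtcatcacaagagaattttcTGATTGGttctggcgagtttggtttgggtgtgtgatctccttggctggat
On either strand, TGATTGG was in 7 of the 8 class II entries and in 3 of the 11 class I entries, against 5.75% of all 27025 promoters of this length. The 8 class II entries include H2-DMa, which had neither motif, and H2-Eb2, whose expression was not tested. No entries of H2-Ab1, Cd74 and Ciita, which had folds below 0, were used. The letters of the X box end were in 3 of the 8 class II entries, in 0 of the 11 class I entries and in 6 of all 27025 promoters (0.0222%). In the 3 class II genes the gap between the motifs was 17 or 18 bases, as the sequences of H2-Eb1, H2-DMb1 and H2-DMb2 show. Since the letters were chosen with these promoters in view, the counts and shares follow from that choice and are no test. A match of letters is a description of the sequence and says nothing of binding in these tumours.

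**Figure D3:**
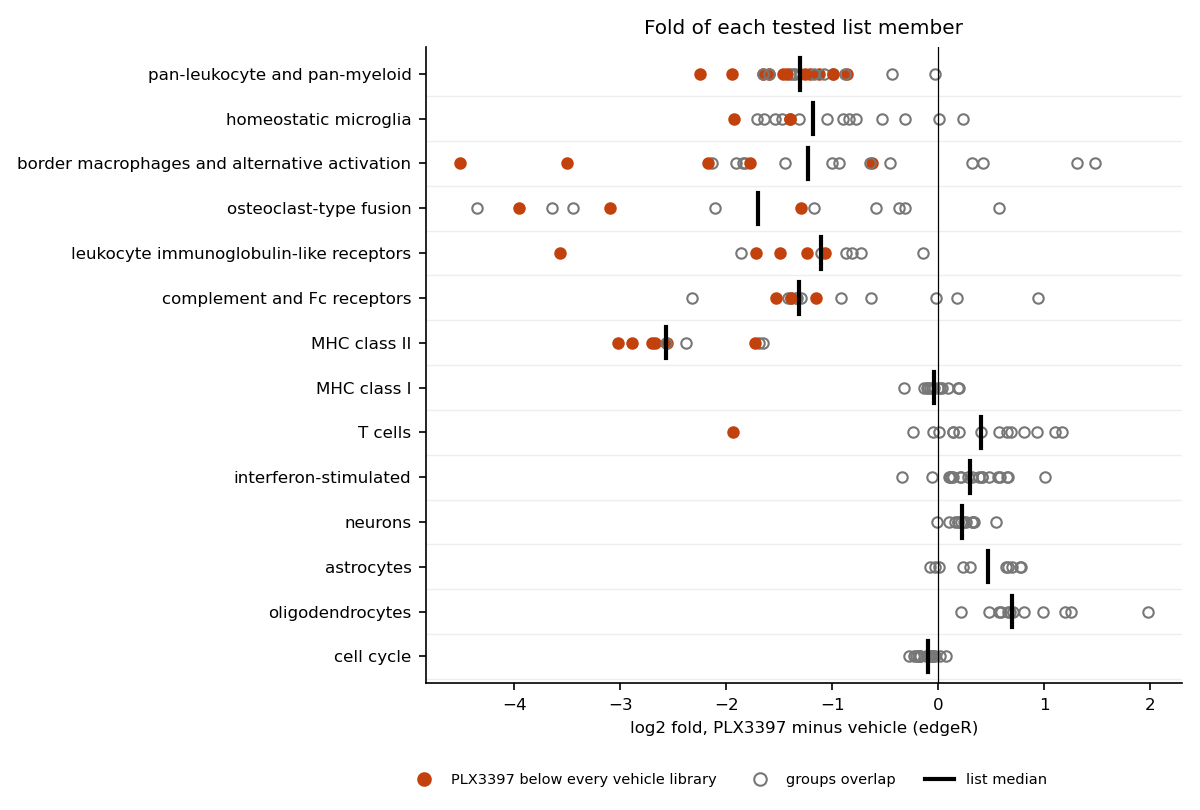
Each circle is the edgeR log2 fold of 1 tested list member, filled where every PLX3397 library lies below every vehicle library and open where the groups overlap; black bars mark list medians. The 10 MHC class II genes all lie left of 0, while the 13 MHC class I genes lie around 0; Cd4 is the single filled circle of the T cell list.

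Genes of osteoclast-type cell fusion, a programme that macrophages can switch on, included some of the largest folds. Ocstamp, a membrane protein needed for fusion, was at 10.9, 6.23, 16.9 and 20.6 CPM under vehicle and at 1.25, 0.947, 0.283 and 1.04 CPM under PLX3397 (fold -3.95, SE 0.56, adjusted p = 0.319; DESeq2 adjusted p = 6.10e-11). Acp5, the tartrate-resistant phosphatase, was at 95.5, 53.4, 174 and 377 CPM under vehicle and at 20.9, 36.7, 11.1 and 13.2 CPM under PLX3397 (-3.10, SE 0.67). Tnfrsf11a, which encodes RANK, the receptor that starts osteoclast formation, was the third separated member (-1.30, SE 0.35). The matrix protease Mmp9 had a fold of -3.65 (SE 1.12), but its high values came from 2 libraries: it was at 18.2, 14.5, 188 and 535 CPM under vehicle and at 13.6, 20.8, 14.5 and 11.5 CPM under PLX3397. Without vehicle replicate 4 its fold was -2.27, and within the libraries that carried Ddx3y its difference was 0.04 on the log2(CPM + 1) scale against -4.51 within the others. The list as a whole had a median of -1.70 over 12 genes, 11 of them below 0.

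Border macrophage and alternative activation genes had a median of -1.23 over 18 of 23 listed genes, and the members went in both directions. Besides Mgl2, the scavenger receptors Msr1 (-1.77, SE 0.38) and Stab1 (-0.62, SE 0.17), the complement receptor Vsig4 and the ficolin Fcna (-2.18, SE 0.68) were separated. Vsig4 was at 0.405 to 1.73 CPM under vehicle and 0 to 0.170 CPM under PLX3397, too few counts for a firm fold. The mannose receptor Mrc1 was at 75.4, 136, 41.1 and 28.2 CPM under vehicle and at 8.04, 35.2, 6.54 and 14.1 CPM under PLX3397, with an overlap of 1 library (-2.14, SE 0.68). Chil3, a chitinase-like protein of alternatively activated macrophages, went the other way, at 15.4, 6.68, 7.73 and 4.32 CPM under vehicle and 34.8, 21.3, 11.97 and 27 CPM under PLX3397 (1.48, SE 0.45), with the groups overlapping through vehicle replicate 1. Of 14 complement and Fc receptor genes, 12 were below 0 with a median of -1.31. Properdin (Cfp, -1.39, SE 0.32), the low-affinity receptor Fcgr3 (-1.53, SE 0.49) and the anaphylatoxin receptor C5ar1 (-1.15, SE 0.42) were separated, while C3 had 0.94 (SE 0.67). DESeq2 called Cfp (adjusted p = 0.0113) but not Fcgr3 (0.177) or C5ar1 (0.407).

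The chemokine receptor Ccr1, found on monocytes and macrophages, was lower under PLX3397, and most chemokines were not. Ccr1 was at 81.3, 42.9, 52.2 and 46.8 CPM under vehicle and at 19.9, 16.7, 5.94 and 15.0 CPM under PLX3397 (-1.96, SE 0.38), with every PLX3397 library below every vehicle library. Ccr2, the receptor of monocyte recruitment, had -1.27 (SE 0.49) with overlapping groups. Of 17 chemokines, 12 had a fold above 0, among them the neutrophil attractants Cxcl1 (1.06, SE 0.61), Cxcl2 (1.11, SE 0.58) and Cxcl5 (1.97, SE 0.97), none of them separated. The chemokine median was 0.15 and lay between -0.26 and 0.55 with single libraries left out. Cxcl16, a membrane-bound chemokine of macrophages, was the 1 separated member (-1.64, SE 0.49). Among immune checkpoint genes Cd200r1, an inhibitory receptor of myeloid cells, was at 3.50 to 4.57 CPM under vehicle and 0.708 to 1.902 CPM under PLX3397 (-1.54, SE 0.35), and Havcr2, which encodes TIM-3, had -1.004 (SE 0.45).

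Lymphocyte and neutrophil lists did not separate the groups. For T cells the median was 0.41 over 15 genes, 12 of them above 0, and it turned to -0.10 without PLX3397 replicate 1, to -0.35 without both that library and vehicle replicate 4, and to -0.57 with quality weights; it was 0.03 with the neuron-list term. The NK cell median of 0.36 turned to -0.23, -0.48 and -0.94 under the same 3 settings and to -0.11 with the neuron-list term. The level of the T cell list was 1.81, 0.87, 1.86 and 1.11 under vehicle and 2.27, 1.72, 0.67 and 1.46 under PLX3397. Cd4 was the exception: it was at 7.48, 7.10, 7.04 and 3.28 CPM under vehicle and at 1.81, 1.66, 1.30 and 1.73 CPM under PLX3397 (-1.94, SE 0.32; DESeq2 adjusted p = 7.61e-06), while Cd3e, the invariant chain of the T cell receptor, had 0.01 (SE 0.88) and Foxp3 -0.05 (SE 0.17). Neutrophil genes had a median of 0.11 over 10 genes, whose sign turned with 4 of the 8 libraries left out. Trem1 was their 1 separated member, and the granule gene S100a8 was at 0.571 to 4.86 CPM under vehicle and 1.34 to 4.15 CPM under PLX3397. Interferon-stimulated genes had a median of 0.30 over 20 genes, 18 of them above 0. Of the 20, 0 were separated, near the shares over all genes tested (2.09% below, 0.446% above). The median lay between 0.15 and 0.65 with single libraries left out. Mx2 belongs to a family of interferon-induced GTPases, and the mouse gene is annotated as a polymorphic pseudogene. Its RNA was at 18.8, 10.4, 14.7 and 11.6 CPM under vehicle and 39.9, 10.1, 28.3 and 33.3 CPM under PLX3397 (1.01, SE 0.40), higher in 3 of the 4 PLX3397 libraries than in any vehicle library. Single members of the NK cell (Klrb1c, -1.07), B cell (Cd79b, -1.22) and mast cell (Gata2, 0.12) lists overlapped between the groups.

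Among the lists of stromal, vessel, brain, tumour, metabolic and lysosomal genes, Col14a1, Tgfbi and Gusb had every PLX3397 library below every vehicle library, and Fos had every one above. Col14a1, a fibril-associated collagen, was at 8.74, 6.75, 6.63 and 15.0 CPM under vehicle and at 1.497, 1.04, 1.73 and 1.04 CPM under PLX3397 (-2.80, SE 0.36; DESeq2 adjusted p = 6.10e-11). It was the 1 separated gene of 12 tested fibroblast genes, and in CD11b-positive cells of PDGFB tumours it was at 106 CPM in the vehicle library. Gusb, a lysosomal glucuronidase, had -0.80 (SE 0.17), the 1 separated gene of 16 lysosomal genes. Over all genes tested the share with PLX3397 below vehicle was 2.09%. The protease stromelysin-1, encoded by Mmp3, was higher: it was at 10.9, 8.67, 10.8 and 26.8 CPM under vehicle and at 26.2, 43.0, 55.8 and 35.8 CPM under PLX3397 (1.49, SE 0.40; DESeq2 adjusted p = 0.036; quality weights adjusted p = 0.0172), with vehicle replicate 4 just inside the PLX3397 range. Bmp2, a growth factor of the TGF-beta family, was at 24.3, 26.0, 17.9 and 16.1 CPM under vehicle and 28.3, 49.4, 43.2 and 35.2 CPM under PLX3397 (0.89, SE 0.23). Its adjusted p was 0.0824 with DESeq2 and 0.0438 with quality weights. Fos, an immediate early transcription factor, was at 11.9 to 15.9 CPM under vehicle and 18.8 to 28.4 CPM under PLX3397 (0.70, SE 0.19). Jun had -0.18 (SE 0.22) and Egr1 -0.36 (SE 0.32). Thus 1 of 12 immediate early genes was separated, against 0.446% of all genes tested with PLX3397 above vehicle. Of the genes with every PLX3397 library above every vehicle library and a mean log2 CPM of at least 3, Bmp2 and Fos had the smallest p, and the next 6 had folds of 0.26 to 0.55: the motor protein Myo6 (0.55, SE 0.17), the nuclear receptor Rorb (0.48, SE 0.15), Clip4 (0.44, SE 0.17), Wdfy1 (0.32, SE 0.11), Cspp1 (0.29, SE 0.11) and malic enzyme Me1 (0.26, SE 0.09).

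The lists of tumour driver genes and of genes of dividing cells had medians near 0 (-0.01 and -0.10). Hras was at 137 to 182 CPM under vehicle and 134 to 198 CPM under PLX3397 (0.10, SE 0.15), and Trp53 at 240 to 367 CPM and 185 to 369 CPM (0.02, SE 0.23, with a sign that turned when single libraries were left out). Counts by symbol do not tell the introduced HRasV12 and p53 forms from the endogenous genes. How far reads of the introduced forms were counted under these symbols is not given in the sources used here. The 20 cell cycle genes had a median of -0.10 (0.04 without vehicle replicate 4), with 18 below and 2 above 0. Aurkb, a mitotic kinase, had -0.27 (SE 0.26). The feedback gene Dusp5 had -0.38 (SE 0.34) and the proneural factor Sox11 0.44 (SE 0.21). Tenascin C (Tnc) had -0.84 (SE 0.46), and -0.28 without vehicle replicate 4, where it was at 1926 CPM. Vessel genes had medians near 0, which turned sign with single libraries left out, of 0.02 over 13 endothelial genes (Kdr 0.16, SE 0.19) and -0.02 over 10 pericyte genes (Abcc9 -0.30, SE 0.19), and the angiogenic factor Angpt2 had 0.38 (SE 0.27) and the hypoxia gene Adm 0.65 (SE 0.50). Oligodendrocyte genes were above 0 in 12 of 12 with a median of 0.69, astrocyte genes had 0.47 over 10 and neuron genes 0.23 over 12. The neuron median turned to -0.43 without PLX3397 replicate 1 and to -0.11 without vehicle replicate 4. The 3 medians turned to -0.34, -0.15 and -0.80 without both vehicle replicate 4 and PLX3397 replicate 1, the libraries at the ends of the first component. Opalin, a myelin gene, was at 8.57 CPM in PLX3397 replicate 1 and at 0.453 to 0.858 CPM in the other 3 PLX3397 libraries.

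The share of brain RNA in a library and the level of myeloid genes were set side by side because both differ between the libraries. Without both vehicle replicate 4 and PLX3397 replicate 1 the medians of the pan-myeloid, MHC class II and microglia lists were -1.70, -3.14 and -1.97. Each was lower than over all 8 libraries. PLX3397 replicate 1 was the highest of its group for these lists (6.05, 3.99 and 4.66). Vehicle replicate 4 was the lowest of its group for the pan-myeloid and microglia lists (6.29 and 3.93). Leaving such libraries out lowers a fold in itself, so these medians do not show what brain RNA contributes. With a term for the neuron list in the fit, added after seeing the data, edgeR called 5 genes lower (0.0272%) and 1 higher (0.00544%). Those lower were Il1r2 (-2.58, adjusted p = 0.0236), Siglec1, a sialic acid receptor of macrophages (-2.21, adjusted p = 0.0251), Lilra5 (-3.76), Cd4 (-2.08) and Col14a1 (-2.53), each of the last 3 with an adjusted p of 0.0441, and the higher one was Mmp3 (1.89, adjusted p = 0.0236). Vehicle replicate 2 and PLX3397 replicate 1 had nearly the same neuron level, 8.15 and 8.39, and nearly the same MHC class II level, 4.07 and 3.99.

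**Figure D4:**
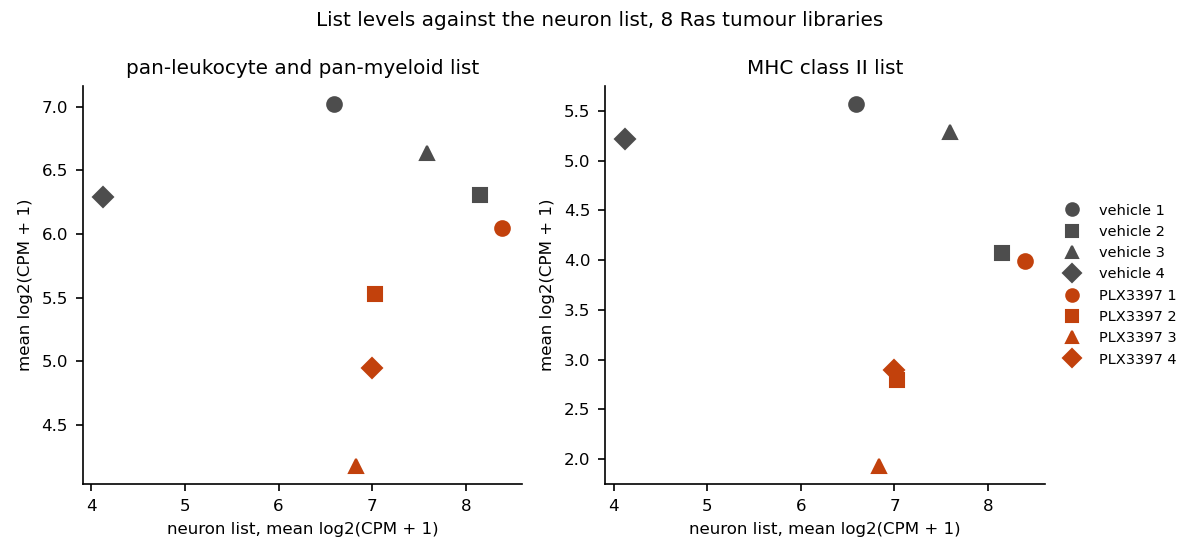
The mean log2(CPM + 1) of the pan-leukocyte and pan-myeloid list (left) and of the MHC class II list (right) against that of the neuron list, 1 symbol per library, vehicle in grey and PLX3397 in orange. At neuron levels of 6.59 to 7.59, the vehicle libraries lie above PLX3397 replicates 2, 3 and 4 in both panels, and vehicle replicate 2 and PLX3397 replicate 1 lie close together at the right.

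Values from other deposited tables, which played no part in the choice of the 383 lower and 82 higher genes, are given for both sets. Of the 383 genes, 59.3% were under 1 CPM in both lines grown from Ras tumours, grown in culture, against 18.7% of all genes tested; of the 82 genes it was 13.4%. In CD11b-positive cells sorted from PDGFB-driven tumours after 3 days of vehicle (1 library) or PLX3397 (2 libraries), 77.9% of the 321 lower genes in that table were lower in both PLX3397 libraries, against 34.4% of all genes. Of the higher genes, 63 were in that table and 68.3% of those were higher in both PLX3397 libraries, against 47.6% of all. Most of these 63 were low there: their median in the vehicle library was 1.75 CPM, against 122 CPM for the 321 lower genes and 18.6 CPM for all. Whether they came from other cells in the sorted samples was not tested. That table differs in tumour, time and library kit and has 1 vehicle library, so these are shares without a test.

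**Figure D5:**
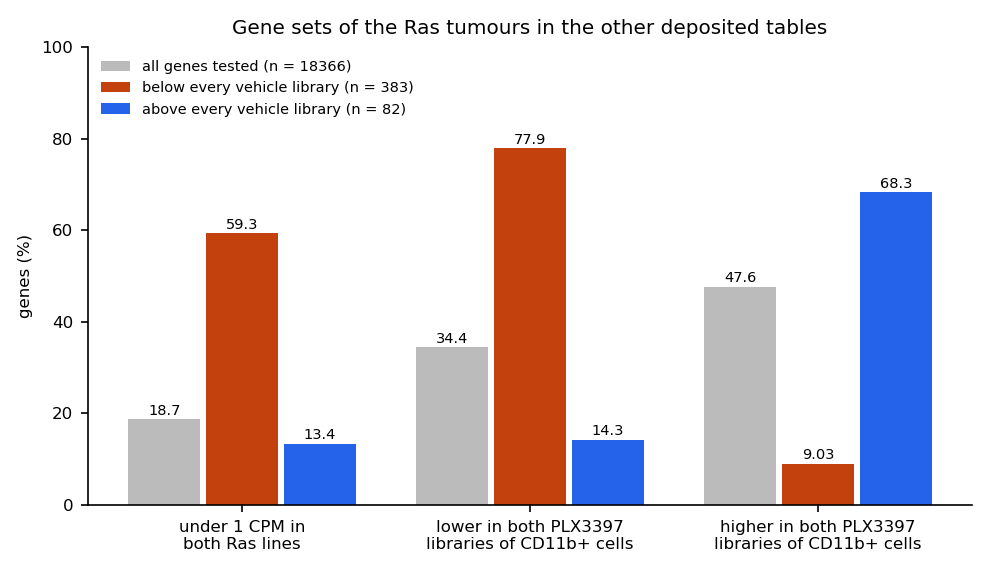
Bars give the percentage of genes for all genes tested (grey), for genes below every vehicle library (orange) and for genes above every vehicle library (blue) in the Ras tumours: on the left those under 1 CPM in both cultured Ras lines, in the middle and on the right those lower or higher in both PLX3397 libraries of CD11b-positive cells, out of the 15012, 321 and 63 genes in that table. The lower genes have the tallest bars at 59.3% and 77.9%.

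Among the sorted cells the named genes differed in how far the libraries lay apart. For Csf1r the vehicle library of CD11b-positive cells had 1972 CPM, with 1805 and 1610 CPM in the libraries from PLX3397 mice, and Fcrls was at 647, 595 and 534 CPM in the same order. H2-Eb1 was at 1148 CPM against 346 and 556 CPM, Cd74 at 3250 against 1309 and 1833 CPM, and Ciita at 101 against 16.02 and 35.6 CPM. Mgl2 was at 339 CPM against 19.6 and 51.2 CPM, Ocstamp at 130 against 16.8 and 23.7 CPM, Il1r2 at 263 against 79.0 and 167 CPM, and Col14a1 at 106 against 15.8 and 28.7 CPM. The median log2 ratio of the mean of the 2 PLX3397 libraries to the vehicle library was -1.22 for the 10 MHC class II genes, -0.35 for the 16 microglia genes, -0.34 for the 23 pan-myeloid genes and 0.06 over all genes. It was -0.64 for the 12 osteoclast-type genes, -0.55 for the 18 border macrophage genes and -0.12 for the 13 MHC class I genes. For the 14 complement and Fc receptor genes it was 0.02, with 4 lower and 4 higher in both PLX3397 libraries, and for the 11 leukocyte immunoglobulin-like receptors -0.10, with 4 lower and 5 higher. Cd4 went the other way there, at 48.1 CPM against 89.7 and 68.2 CPM, and Acp5 was at 580 against 644 and 600 CPM. Libraries of the sorted cells held 26.8 to 30.9 M counts.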

How the data were processed

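Whole-tumour RNA of 8 mice (31.3 to 35.9 M counts each) was analysed. The deposited tables hold unscaled counts for each gene symbol; per the submitters' processing notes, reads were handled with STAR 2.6.1e, featureCounts 1.6.2, cutadapt 1.9.1 and Trim Galore 0.4.2 (build GRCm38). Rows with date-like names (27) were left out. The table of lines held 5 columns that matched no sample, which were not used. Genes were tested with edgeR 4.0.16 in R 4.3.3 (filterByExpr, TMM, robust quasi-likelihood fit, Benjamini-Hochberg over 18366 genes, threshold 0.05), first on simulated counts. DESeq2 1.42.0 and limma 3.58.1 were alternatives. CPM of the lines and CD11b-positive cells are per total counts; single cells were not used. Members, lists and tests were chosen with earlier results of these data known. Named genes are the 14 lower and 8 higher separated genes with the smallest p (mean log2 CPM of at least 3), up to 4 members per list (45 lists), 8 fixed genes and 11 chosen after their values were seen: Ptprc, Itgam, P2ry12, Tmem119, Cx3cr1, Mrc1, Mmp9, H2-DMa, H2-DMb1, H2-DMb2 and Ciita. Further list members are named with their values as examples. P-values set the group difference against the spread between libraries within the groups, and hold for the samples used in each fit.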

Additional observations from a re-analysis of the deposited data

Results flagged for a closer look

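Of 304 sets of 4 libraries (named genes and lists, each within a group), 20 held a highest or lowest value whose gap to the next took more of the range than Dixon's 95% limit for 4 values; chance flags about 1 in 20. Vehicle replicate 4 stood apart most often: low for Inpp5d (45.8 CPM against 69.8 to 72.7), Cd4 (3.28 against 7.04 to 7.48), Csf1r (155 against 271 to 293), the microglia list (3.93 against 4.98 to 5.13) and the pericyte list (4.06 against 4.48 to 4.54), and high for Emilin2 (39.4 against 29.6 to 30.7), Mmp3 (26.8 against 8.67 to 10.9) and the list of MAPK feedback genes (7.59 against 7.02 to 7.09). Vehicle replicate 2 was low for H2-Eb1 (49.1 against 143 to 162), H2-Aa (69.6 against 207 to 226) and H2-DMb2 (4.30 against 11.4 to 12.6), and high for Gata2 (8.13 against 4.87 to 5.14). Gata2 was the 1 tested member of the mast cell list, so the list level (3.19 against 2.55 to 2.62) is the same measurement on a log2 scale and is counted again among the 20. Vehicle replicate 1 was high for Ms4a7 (36.1 against 14.0 to 16.2) and low for Hba-a2 (12.1 against 19.6 to 21.0).

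In the PLX3397 group, replicate 1 was high for the neuron list (8.39 against 6.83 to 7.03), Thy1 (313 against 120 to 130) and Opalin (8.57 against 0.453 to 0.858). Replicate 3 was low for Ms4a6c (13.7 against 29.6 to 32.8), and replicate 2 was high for the list of matrix metalloproteases (5.76 against 5.17 to 5.23). What set these libraries apart was not tested.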

How the results depend on the processing

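Under 22 other settings, 2165 of 2326 values of the 106 named genes kept their sign and side of the threshold, 116 newly passed it and 45 changed sign. Of 990 list medians, 953 moved by less than 1 SD. Many medians near 0 still turned sign with single libraries left out. Examples are chemokines (-0.26 to 0.55) and oligodendrocyte precursors (-0.51 to 0.47). EdgeR's 0 calls became 1 with no filter on low counts, 169 with DESeq2, 377 with quality weights and 6 with the neuron term, and stayed at 0 with each library left out. Genes lower at an unadjusted p under 0.05 numbered 1378 with quality weights, 390 without PLX3397 replicate 4 and 1005 without both vehicle replicate 4 and PLX3397 replicate 1. Genes higher numbered 192 with no filter, 45 at a mean log2 CPM of at least 1, 147 with DESeq2, 551 with quality weights, 285 without both libraries, 160 with the neuron term, and 47 to 174 with single libraries left out. Genes below every vehicle library numbered 420 to 787 with single libraries left out and 1328 without both. Genes above numbered 143 with no filter, 51 with the stricter filter, 146 to 308 with single libraries left out and 814 without both. With fewer libraries a full separation is easier to reach, so the counts with libraries left out are not comparable with the 383 and 82 over all libraries. The neuron term and the fit without both libraries were added after seeing the data.

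With quality weights the named genes that changed sign were Gata2 (-0.16), Aldh1l1 (-0.10), Thy1 (-0.049), Clic6 (-0.029), Dusp5 (0.034), Csf1 (0.24), Kit (-0.48) and Ddx3y (-4.09). Without both libraries they were Opalin (-0.33), Aldh1l1 (-0.28), Thy1 (-0.27), Aurkb (0.0031), Dusp5 (0.088), Csf1 (0.13), Kit (-0.48) and Ddx3y (-1.16). With the neuron term they were Csf1 (0.091), Kit (-0.11) and Ddx3y (-0.71), and with a term for Ddx3y, Trp53 (-0.0047) and Ddx3y (-0.30). Csf1 was also at 0.012 with RLE scaling and with DESeq2, 0.022 with upper-quartile scaling and 6.75e-05 with counts halved. With single libraries left out the fold lay between -0.29 and 0.33 for Gata2, -0.12 and 0.66 for Thy1, -0.067 and 0.37 for Xist, -0.14 and 0.10 for Csf1, -0.18 and 0.46 for Kit, -0.11 and 0.19 for Trp53 and -0.75 and 1.01 for Ddx3y. With both or either of these libraries or any other left out, the ranges were -0.33 to 2.39 for Opalin, -0.28 to 0.99 for Aldh1l1, -0.47 to 0.0031 for Aurkb, -0.59 to 0.088 for Dusp5 and -0.11 to 0.32 for Trp53. The cause was not tested.

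The labels state no pairing of the mice by replicate number. Same-numbered deviations from the group means correlated at 0.01, 0.14, -0.45 and 0.55. These correlations cannot decide whether same-numbered mice shared a batch, and Ddx3y split by replicate number alike in both groups. With the replicate block, edgeR called 0 genes (smallest adjusted p = 0.338), with 604 lower and 86 higher at an unadjusted p under 0.05, and Trp53 was at -0.0084 and Ddx3y at -0.38. Depth was 31.3 to 35.9 M counts; the number of calls on the same 8 libraries differed with the tool. Survival time, sex and age were not in the labels used here.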
